A study of Bos taurus with 14 samples.

Results

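The antioxidant and redox genes examined here are *SOD1*, *SOD2*, *CAT*, *GPX1*, *GPX3*, *GPX4*, *PRDX3*, *PRDX6*, *NQO1* and *TXNIP*. They were chosen by name, and every probe set of the array that carries a single one of these symbols was kept. This gave 14 probe sets for 9 of the 10 genes, among the 24016 bovine probe sets of the table. *TXNIP*, which encodes the thioredoxin interacting protein, matched no probe set by symbol or gene identifier and was not analysed here. Affymetrix GeneChip Bovine Genome Arrays were used to measure expression in *M. longissimus dorsi* (LD) muscle of 14 Charolais × Limousin heifers, 1 array per animal. The 7 outdoor/pasture-fed animals had grazed ryegrass, meadow grass and white clover for the year before slaughter. The 7 indoor/concentrate-fed animals were housed throughout and received barley straw and a concentrate of beet pulp, barley, soybean meal and molasses with a mineral and vitamin premix. Animals were assigned to a system at random, and the labels give no age. Diet, housing and exercise differ together between the systems and cannot be told apart. The animals of each system were kept in several management groups, which the labels do not name, so each test treats the animals as independent.

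Reactive oxygen species arise in muscle mainly as superoxide, which superoxide dismutases turn into hydrogen peroxide. Catalase then breaks down the peroxide, and the glutathione peroxidases and the peroxiredoxins reduce it with glutathione or thioredoxin as the source of electrons. Several of these enzymes carry selenocysteine at the active site, and the transcription factor NRF2 (*NFE2L2*) is known to raise the expression of many of the genes, *NQO1* among them.

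Values are log2 expression levels as deposited, quantile normalised and condensed to 1 value a probe set by FARMS, a factor-analysis method, which returns an almost constant value where the probes of a set share no signal. Levels of different probe sets are not comparable with each other. Of the 14 probe sets, 12 varied over the arrays (standard deviation (SD) above 0.01). The other 2, the second probe set of *PRDX3* and the fourth of *PRDX6*, had an SD of 1.04e-05 and carry no information on the groups. Of all bovine probe sets 9623 varied. Precision is limited by the number of arrays. Of 9 skeletal muscle markers 6 were measured, and the 3 of them that varied, *TNNC2*, *DES* and *MYH1*, had outdoor/pasture-fed means of 14.41, 12.98 and 13.94, in a table whose values run from 4.95 to 14.44. Since levels of different probe sets are not comparable, this is only a rough check of the tissue. Of the 9 red cell markers measured 6 were almost constant, *HBA* at 5.37 and *SLC4A1* at 5.25 among them. The 3 that varied had means at pasture and on concentrate of 5.51 and 5.53 (*HBB*), 7.11 and 7.23 (*AHSP*) and 9.83 and 9.99 (*GYPC*).

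The peroxiredoxins *PRDX3* and *PRDX6* and the mitochondrial superoxide dismutase *SOD2* had 1.07- to 1.19-fold higher means after a year at pasture, each at an unadjusted p under 0.05, while another probe set of *PRDX6* had the opposite sign, with an interval that included 0. For the selenoenzymes *GPX1*, *GPX3* and *GPX4*, catalase, *SOD1* and *NQO1* the interval of the difference included 0. No member passed an adjusted p of 0.05 in limma over all probe sets, where the rule called 0.0167% of the probe sets. The lowest adjusted p was 0.264 (*PRDX3*). Nor did any pass when only varying probe sets were tested, where 0.343% were called and the members ran from 0.175 to 0.909. At an unadjusted p under 0.05, 4 of the 12 varying member probe sets were higher at pasture, against 9.23% of all varying probe sets, and 0 were lower, against 10.7%. These 4 belong to 3 genes, since 2 are probe sets of *PRDX6*. Of the 12 differences 9 were positive, with a median of 0.09, whereas 47.5% of all varying probe sets were positive, with a median of -0.01. The groups overlapped for each of the 12 probe sets, and they did not for 0.811% of the varying probe sets.

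**Figure D1:**
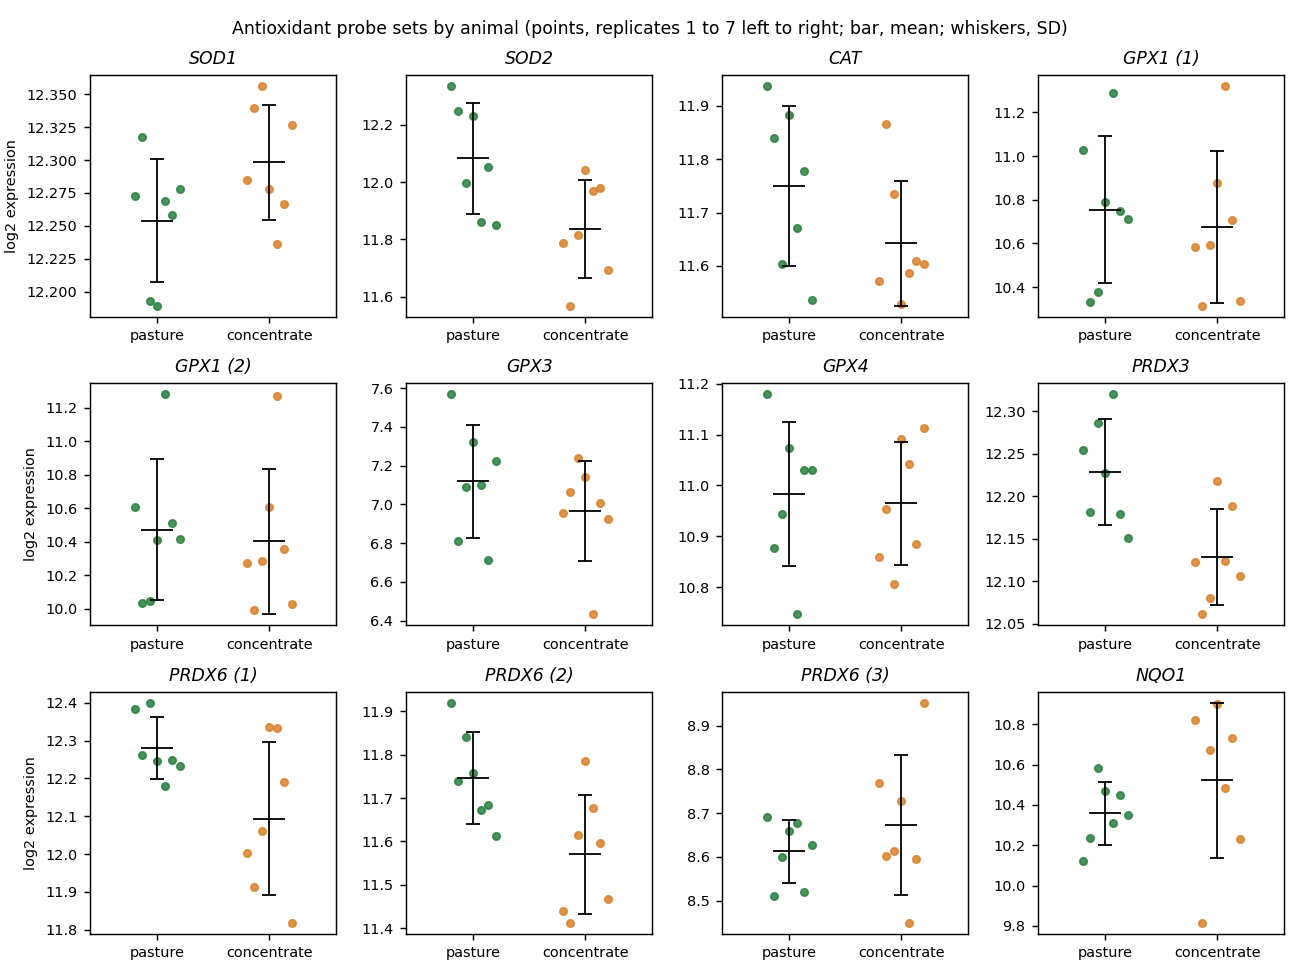
Log2 expression (vertical axes, each with its own range) of the 12 varying member probe sets, with 1 point an animal, green for the 7 at pasture and orange for the 7 on concentrate, where bars are means and whiskers SDs; numbers in brackets tell probe sets of 1 gene apart. The groups overlap in every panel, and all 7 outdoor/pasture-fed animals lie above the indoor/concentrate-fed median for *SOD2*, *PRDX3* and the first 2 probe sets of *PRDX6*.

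*PRDX3*, the peroxiredoxin of the mitochondrial matrix, gave the smallest p of the members in the fit over all probe sets. With only varying probe sets its unadjusted p from limma was 0.025. The second *PRDX6* probe set then had 0.0188 and *SOD2* 0.0204. The informative probe set of *PRDX3* (Bt.4476.1.S1_at) had a lowest, median and highest level of 12.15, 12.23 and 12.32 in the outdoor/pasture-fed animals. In the indoor/concentrate-fed animals these were 12.06, 12.12 and 12.22. All 7 outdoor/pasture-fed animals were above the indoor/concentrate-fed median, and 5 of the indoor/concentrate-fed animals were below every outdoor/pasture-fed animal. The means were 12.23 ± 0.06 (SD, n = 7) and 12.13 ± 0.06 (SD, n = 7). The difference was 0.10 (SE 0.03, 95% interval 0.03 to 0.17, adjusted p = 0.264 from limma, exact permutation p = 0.0111), a 1.07-fold difference. It stayed between 0.08 and 0.11, at an unadjusted p under 0.05, in all 22 alternatives.

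*PRDX6* encodes a peroxiredoxin that also acts on phospholipids, and 4 probe sets of the array carry its name. Its first probe set (Bt.5319.1.S1_at) had a lowest, median and highest level of 12.18, 12.25 and 12.40 at pasture and of 11.82, 12.06 and 12.34 on concentrate. The second (Bt.5319.2.S1_a_at) was at 11.61, 11.74 and 11.92 at pasture and at 11.41, 11.60 and 11.78 on concentrate. For both, all 7 outdoor/pasture-fed animals lay above the indoor/concentrate-fed median, and 4 of the indoor/concentrate-fed animals lay below every outdoor/pasture-fed animal, with indoor/concentrate-fed replicate 4 the highest of its group. The indoor/concentrate-fed animals were more spread out on the first probe set, with an SD of 0.20 against 0.08 at pasture. The differences were 0.19 (SE 0.08, 95% interval 0.01 to 0.36, exact permutation p = 0.0466) and 0.18 (SE 0.06, 95% interval 0.03 to 0.32, exact permutation p = 0.0239), with adjusted p-values from limma of 0.412 and 0.325.

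The third *PRDX6* probe set had a small negative difference. This probe set (Bt.5319.3.S1_s_at) bears the suffix that Affymetrix gives to sets whose probes match more than a single transcript. Its level was 8.61 ± 0.07 (SD, n = 7) in the outdoor/pasture-fed and 8.67 ± 0.16 (SD, n = 7) in the indoor/concentrate-fed animals. They differed by -0.06 (SE 0.07, 95% interval -0.20 to 0.08, exact permutation p = 0.404). Indoor/concentrate-fed replicate 7 had the highest value, 8.95, on this probe set and the lowest, 11.82, on the first. Without that animal the difference was -0.01 with an unadjusted p of 0.794 from limma. Without indoor/concentrate-fed replicate 5 it was -0.10 with an unadjusted p of 0.13. The difference was negative in all 22 alternatives, and its unadjusted p was under 0.05 in 0 of them.

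*SOD2*, the manganese superoxide dismutase of mitochondria, showed the largest difference among the members that were higher. Its level (Bt.4748.1.S1_at) ran from 11.85 over a median of 12.05 to 12.34 at pasture and from 11.57 over 11.82 to 12.04 on concentrate. All 7 outdoor/pasture-fed animals were above the indoor/concentrate-fed median, and 4 of them were above every indoor/concentrate-fed animal. The means were 12.08 ± 0.19 (SD, n = 7) and 11.84 ± 0.17 (SD, n = 7). They differed by 0.25 (SE 0.10, 95% interval 0.04 to 0.46, adjusted p = 0.358 from limma, exact permutation p = 0.0291), a 1.19-fold difference with a 95% interval of 1.03 to 1.37.

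*SOD1*, the copper and zinc superoxide dismutase of the cytosol, had the opposite sign and the smallest spread. Its level (Bt.15975.1.A1_at) ran from 12.19 over 12.27 to 12.32 at pasture and from 12.24 over 12.29 to 12.36 on concentrate. Of the outdoor/pasture-fed animals 6 were below the indoor/concentrate-fed median. The difference was -0.04 (SE 0.02, 95% interval -0.10 to 0.01, adjusted p = 0.519 from limma, exact permutation p = 0.0921). *SOD3*, the extracellular dismutase, differed by -0.07 (SE 0.14), and *CCS*, the chaperone that loads copper onto *SOD1*, by 0.03 (SE 0.08). Of the 4 genes of this group, *SOD2* alone had an unadjusted p under 0.05. Of all varying probe sets, 9.23% were higher and 10.7% lower at that threshold.

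Catalase, which breaks down hydrogen peroxide in peroxisomes, ran from 11.54 over 11.78 to 11.94 at pasture and from 11.53 over 11.60 to 11.87 on concentrate (*CAT*, Bt.11025.1.A1_at). Of the outdoor/pasture-fed animals 5 were above the indoor/concentrate-fed median, and 2 were above every indoor/concentrate-fed animal. The difference was 0.11 (SE 0.07, 95% interval -0.05 to 0.26, adjusted p = 0.622 from limma, exact permutation p = 0.159).

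The selenoenzymes among the members were positive in sign at all 4 probe sets, with intervals that reach well to either side of 0. *GPX1*, the abundant glutathione peroxidase of cytosol and mitochondria, was read by a pair of probe sets that followed each other closely over the animals (Pearson r = 0.98 over 14 arrays with the group means removed). The first (Bt.4317.1.S1_at) ran from 10.33 over 10.75 to 11.29 at pasture and from 10.31 over 10.59 to 11.32 on concentrate. The second (Bt.4317.2.A1_at) ran from 10.03 over 10.42 to 11.28 at pasture and from 9.99 over 10.29 to 11.27 on concentrate. On both, the highest animal of each group was replicate 5, and replicate 2 was the lowest of each group, so that the range within either group was far larger than the difference between them. The differences were 0.08 (SE 0.18, 95% interval -0.32 to 0.47, exact permutation p = 0.675) and 0.07 (SE 0.23, 95% interval -0.42 to 0.56, exact permutation p = 0.737). Without outdoor/pasture-fed replicate 5 they were -0.01 and -0.06, so *GPX1* has no settled direction in these animals. On the linear scale the intervals run from 0.80- to 1.39-fold and from 0.75- to 1.48-fold.

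*GPX3*, the secreted glutathione peroxidase of plasma, ran from 6.71 over 7.10 to 7.57 at pasture and from 6.43 over 7.01 to 7.24 on concentrate (Bt.12916.1.S1_at). Outdoor/pasture-fed replicate 1 was the highest animal, and indoor/concentrate-fed replicate 5 lay far below its group. The difference was 0.15 (SE 0.15, 95% interval -0.17 to 0.47, exact permutation p = 0.330). It was 0.06 without that low animal and 0.08 without outdoor/pasture-fed replicate 1. *GPX4*, which reduces lipid peroxides within membranes, ran from 10.75 over 11.03 to 11.18 at pasture and from 10.81 over 10.95 to 11.11 on concentrate (Bt.4205.1.S1_at). Its difference was 0.02 (SE 0.07, 95% interval -0.13 to 0.17, exact permutation p = 0.796), an interval of 0.91- to 1.12-fold. Adjusted p-values from limma were 0.760 to 0.951 for the 4 probe sets. Without outdoor/pasture-fed replicate 1 the difference of *GPX4* was -0.01.

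*NQO1*, the quinone reductase that serves as a standard readout of NRF2, had the most negative difference of the members and very unequal spread. Its level (Bt.9754.1.S1_at) ran from 10.12 over 10.35 to 10.58 at pasture and from 9.82 over 10.67 to 10.90 on concentrate. All 7 outdoor/pasture-fed animals were below the indoor/concentrate-fed median, and 4 indoor/concentrate-fed animals were above every outdoor/pasture-fed animal, but indoor/concentrate-fed replicate 2 was the lowest animal of all. The SD was 0.16 at pasture and 0.38 on concentrate. The difference was -0.16 (SE 0.16, 95% interval -0.50 to 0.17, adjusted p = 0.754 from limma, exact permutation p = 0.316). Without indoor/concentrate-fed replicate 2 it was -0.28 with an unadjusted p of 0.0272 and an adjusted p of 0.418 from limma. Without indoor/concentrate-fed replicate 4, the highest animal, it was -0.10 with an unadjusted p of 0.524.

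**Figure D2:**
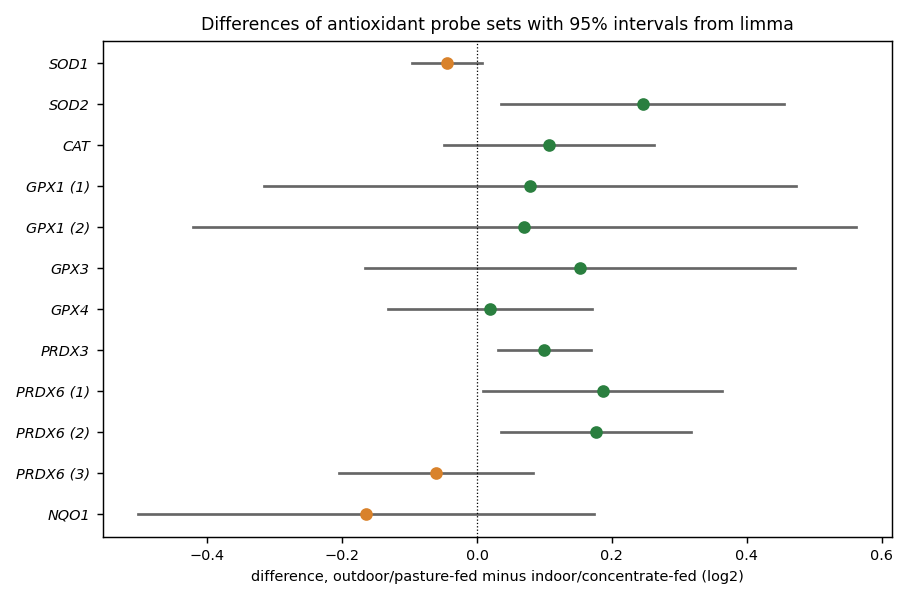
Difference in log2 expression, outdoor/pasture-fed minus indoor/concentrate-fed (horizontal axis), of the 12 varying member probe sets (vertical axis), with 95% intervals from limma; green points are positive and orange points negative. The intervals of *SOD2*, *PRDX3* and the first 2 probe sets of *PRDX6* lie above 0, from 0.01 at the nearest, and those of the other 8 include 0.

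How the members vary together was examined after the mean of each group had been removed, so that the difference between the systems plays no part. Among the 66 pairs of varying member probe sets, 62 join different genes, and 1 of these passed a permutation test after Benjamini-Hochberg adjustment over the 66. *SOD2* and the second probe set of *PRDX6* had r = 0.785 (permutation p = 0.00179, adjusted p = 0.0394) and Spearman's rho = 0.780 (permutation p = 0.00143, adjusted p = 0.0315) over 14 arrays. This relation was present in both groups, with r = 0.700 at pasture and 0.886 on concentrate, and it was 0.685 without the 2 animals farthest from the median of *SOD2*. With the first probe set of *PRDX6* it was r = 0.687 (permutation p = 0.00468, adjusted p = 0.0772) and rho = 0.705 (permutation p = 0.00554, adjusted p = 0.0914). The first and second *PRDX6* probe sets had r = 0.855, while the third had r = -0.503 with the first. The lowest r was that of *CAT* and *NQO1*, at -0.566 (permutation p = 0.0220, adjusted p = 0.290) with rho = -0.477 (permutation p = 0.0739, adjusted p = 0.570). This r was -0.47 at pasture and -0.749 on concentrate. It was -0.149 without the 2 animals farthest from the median of *CAT*, so its size depends on them. The arrays share a common normalisation, which can itself move probe sets together.

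**Figure D3:**
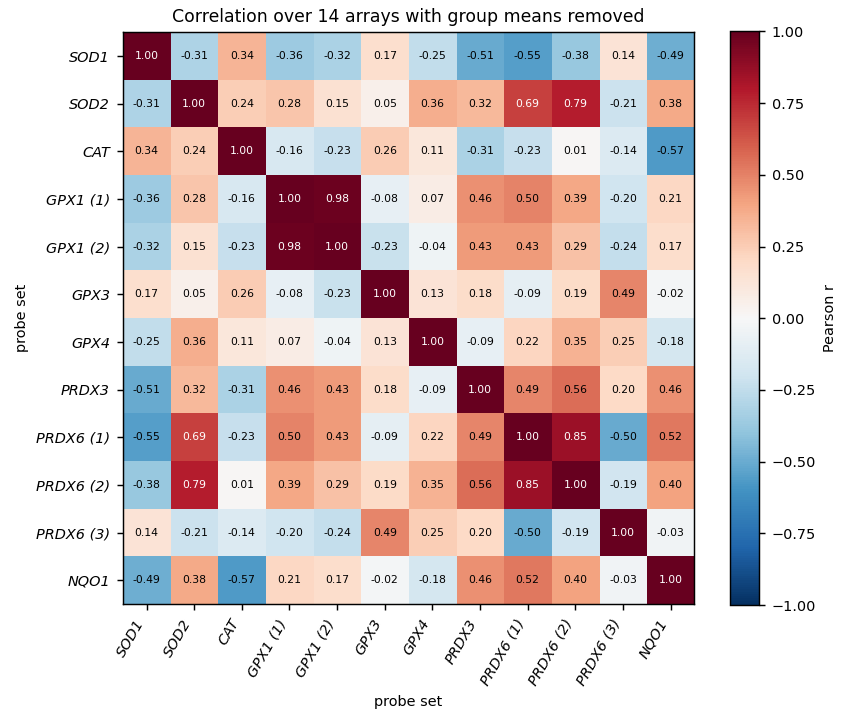
Pearson correlation (colour and printed value, from -1 to 1) of each pair of the 12 varying member probe sets over the 14 arrays after the group means were removed. The probe sets of *GPX1* form a tight pair (0.98), *SOD2* has 0.69 and 0.79 with the first 2 probe sets of *PRDX6*, and the 0.79 is the value between different genes that passed the adjustment.

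Over all varying genes, those whose pattern within the groups was most like that of *PRDX3* were *MMUT*, a mitochondrial methylmalonyl-CoA mutase (r = 0.923 over 14 arrays), *PCLAF* (r = 0.900), *C16H1orf115* (r = 0.885), *CDCA8* (r = 0.883) and *CKAP2* (r = 0.868). They are the highest of the correlations with all varying probe sets of a single symbol and are given as a description.

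Markers of other cell types and of mitochondria were read in the same fit, and none passed an adjusted p of 0.05, the lowest being 0.147. At an unadjusted p under 0.05, 9.23% of all varying probe sets were higher and 10.7% lower. All 7 measured mitochondrial markers, among them *NDUFS1* of respiratory complex I (0.38, SE 0.13) and *COX4I1* of cytochrome oxidase (0.13, SE 0.06), had the higher mean in the outdoor/pasture-fed animals, 4 of them at an unadjusted p under 0.05. Their mean level was 12.17 to 12.45 at pasture and 12.03 to 12.40 on concentrate. All 7 varying markers of endothelium, of 8 measured, were higher with an unadjusted p under 0.05, and their mean level was 8.82 to 9.26 at pasture and 8.31 to 8.84 on concentrate. The smallest p was that of *PECAM1*, an adhesion protein of endothelial cells (0.54, SE 0.11, adjusted p = 0.147 from limma). *VWF* was almost constant at 5.75 at the probe set that was read, of its 2. All 5 varying slow fibre markers were higher, 1 of them (*ATP2A2*) at an unadjusted p under 0.05, with mean levels of 13.47 to 13.72 and 12.84 to 13.69. The 6 varying leukocyte markers were higher and 6 of the 7 adipocyte markers lower, all 3 varying red cell markers were lower, and 4 of the 7 fibroblast markers were higher, in each case with 0 at an unadjusted p under 0.05. Of the 3 varying skeletal muscle markers, 1 was higher and 1 lower at that threshold. In bulk muscle, more cells of a type and more RNA per cell cannot be told apart.

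The mean differences of *SOD2*, *PRDX3* and the first 2 probe sets of *PRDX6* had the same sign as those of the varying mitochondrial and endothelial markers, whose part in them was not tested. With the group means removed, 36 relations of the 12 member probe sets with the mean of the mitochondrial, slow fibre or endothelial markers were computed. Here the 2 farthest animals are those farthest from the median of the marker mean, not of the member. The relation that passed the adjustment was that of *GPX4* with the mitochondrial markers, with r = 0.787 (permutation p = 0.00062, adjusted p = 0.0223), rho = 0.776 (permutation p = 0.00212, adjusted p = 0.0763) and r = 0.743 without the 2 farthest animals. For *SOD2* with the mitochondrial markers r was 0.610 (permutation p = 0.0253, adjusted p = 0.195) and rho 0.604 (permutation p = 0.0318, adjusted p = 0.241), and r was 0.449 without the 2 farthest animals. For *PRDX3* with the endothelial markers r was 0.619 (permutation p = 0.0270, adjusted p = 0.195) and rho 0.626 (permutation p = 0.0272, adjusted p = 0.241), and r was 0.762 without the 2 farthest animals. The second *PRDX6* probe set had r = 0.618 with the mitochondrial markers (permutation p = 0.0261, adjusted p = 0.195) and rho = 0.560 (permutation p = 0.0438, adjusted p = 0.241), and r was 0.411 without the 2 farthest animals. *PRDX3* with the mitochondrial markers had r = 0.362 (permutation p = 0.218, adjusted p = 0.490) and rho = 0.341 (permutation p = 0.253, adjusted p = 0.507), and r was 0.562 without the 2 farthest animals.

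In the wider redox pathway most differences were negative. Of 93 measured genes of the pathway lists other than the members, 68 varied. Of these, 16 had a positive and 52 a negative difference, and the median was -0.06. Of all varying probe sets 47.5% were positive, with a median of -0.01. At an unadjusted p under 0.05, 5 of the 68 pathway genes were higher and 12 lower, that is 17 of 68. Of all varying probe sets, 9.23% and 10.7% were so in the respective directions. None passed an adjusted p of 0.05 in limma over all probe sets, the lowest being 0.196. Nor did any pass when only varying probe sets were tested. There the adjusted p from limma was 0.0728 for *MGST2*, 0.08 for *MT2A* and 0.097 for *SRXN1*.

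**Figure D4:**
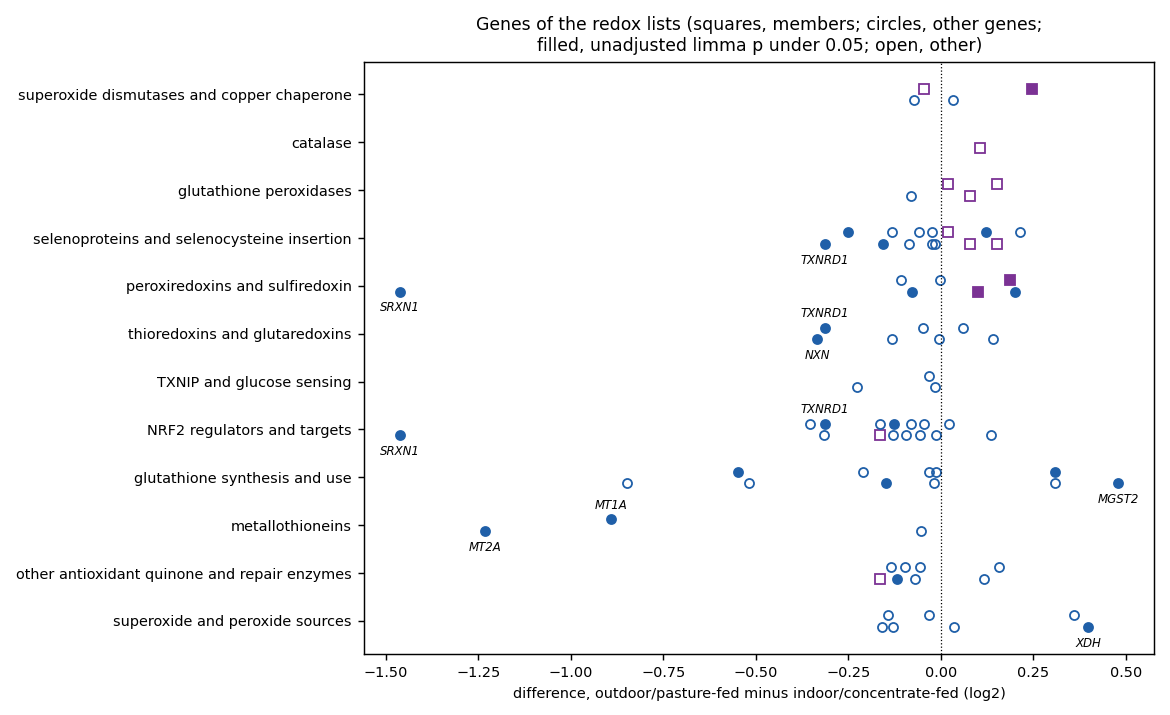
Difference in log2 expression, outdoor/pasture-fed minus indoor/concentrate-fed (horizontal axis), of the varying genes of 12 redox lists (vertical axis), 1 probe set a gene. Squares are members and circles other genes, filled where the unadjusted p from limma was under 0.05; some genes stand in several lists. *SRXN1* (-1.46), *MT2A* (-1.23) and *MT1A* (-0.89) lie far to the left, and most circles are left of 0.

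Sulfiredoxin (*SRXN1*), which restores over-oxidised peroxiredoxins and is a known target of NRF2, had the most negative difference of all. It ran from 6.72 over 7.36 to 8.10 at pasture and from 7.71 over 8.53 to 10.81 on concentrate. The groups overlapped only through outdoor/pasture-fed replicate 5 and the lowest 2 indoor/concentrate-fed animals. The difference was -1.46 (SE 0.43, adjusted p = 0.247 from limma, exact permutation p = 0.00175).

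*PRDX1*, the abundant cytosolic peroxiredoxin, ran from 12.90 over 12.95 to 12.97 at pasture and from 12.95 over 13.02 to 13.08 on concentrate, and 1 indoor/concentrate-fed animal, replicate 5, lay among the outdoor/pasture-fed animals. Its difference was small, -0.08 (SE 0.02, adjusted p = 0.196 from limma, exact permutation p = 0.00350). With only varying probe sets *PRDX1* had an unadjusted p of 0.03 and an adjusted p of 0.209 from limma. *PRDX2*, named after its value was seen, was at 0.20 (SE 0.07). *PRDX4* and *PRDX5*, also named after their values were seen, were at -0.11 (SE 0.07) and -0.00 (SE 0.04). Of the 7 genes of this list, 3 were higher and 2 lower at an unadjusted p under 0.05. The shares of all varying probe sets were 9.23% and 10.7%. Whether *PRDX1* and the other peroxiredoxins differ from each other in response was not tested.

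Of 14 varying genes of selenoproteins and selenocysteine insertion, of 20 measured, 5 had a positive and 9 a negative difference, and at an unadjusted p under 0.05, 1 was higher and 3 were lower, against 9.23% and 10.7% of all varying probe sets, and none passed the adjustment (lowest adjusted p = 0.30 from limma). *TXNRD1*, the cytosolic thioredoxin reductase, ran from 10.28 over 10.43 to 10.99 at pasture and from 10.54 over 10.86 to 11.09 on concentrate, a difference of -0.31 (SE 0.12, adjusted p = 0.350 from limma, exact permutation p = 0.0291). *SELENOM*, a selenoprotein of the endoplasmic reticulum, differed by -0.25 (SE 0.09, adjusted p = 0.30, exact permutation p = 0.0128). The gene that was higher, *SELENOP*, which carries selenium in plasma and was named after its value was seen, differed by 0.12 (SE 0.05). Of 5 glutathione peroxidases measured 4 varied, 3 positive and 1 negative, with 0 at that threshold. *GPX7* differed by -0.08 (SE 0.25), and *GPX2* was almost constant at 5.47.

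The thioredoxin and glutaredoxin list held 7 varying genes of 10 measured. At an unadjusted p under 0.05, 2 were lower and 0 higher, against 10.7% and 9.23% of all varying probe sets. Next to *TXNRD1* the other lower gene was *NXN* (nucleoredoxin), at -0.33 (SE 0.13, exact permutation p = 0.0210). Around *TXNIP*, which itself matched no probe set, 5 genes of glucose sensing and of the arrestin family to which it belongs were measured and 3 varied. Their differences were -0.23 to -0.01, and none had an unadjusted p under 0.05. The partner of the glucose sensor, *MLX*, had the smallest p, at -0.23 (SE 0.11, exact permutation p = 0.0758), and *ARRDC1* was almost constant.

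Genes of NRF2 and its targets were negative in 13 of 15 varying cases, *NQO1* included, of 20 measured. Of all varying probe sets 47.5% were positive. At an unadjusted p under 0.05, 3 of the NRF2 genes were lower and 0 higher, against 10.7% and 9.23% of all varying probe sets. The 3 were *SRXN1*, *TXNRD1* and *PGD*, of which *SRXN1* and *TXNRD1* also stand in other lists. None passed the adjustment. *PGD*, an enzyme that makes NADPH, was named after its value was seen (-0.13, SE 0.06). *GCLC* and *GCLM*, which start the synthesis of glutathione, were almost constant on the array and say nothing of the groups. The same holds for *NFE2L2* itself at the probe set that was read, of its 2.

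Of 18 measured genes of glutathione synthesis and use 11 varied. At an unadjusted p under 0.05, 2 were higher and 2 lower, against the same 9.23% and 10.7% of all varying probe sets, and none passed the adjustment. *MGST2*, a membrane-bound glutathione transferase, ran from 11.54 over 11.75 to 11.94 at pasture and from 10.83 over 11.33 to 11.57 on concentrate. Its groups met only at 2 indoor/concentrate-fed animals and 1 outdoor/pasture-fed animal, and the difference was 0.48 (SE 0.12, adjusted p = 0.196 from limma, exact permutation p = 0.00175). *GSS*, which completes the synthesis of glutathione, differed by -0.15 (SE 0.04, adjusted p = 0.233, exact permutation p = 0.00466). *GSR*, which returns oxidised glutathione to its reduced form, differed by -0.55 (SE 0.23) and *GSTK1*, a mitochondrial and peroxisomal transferase, by 0.31 (SE 0.12), and both were named after their values were seen.

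The metallothioneins, small metal-binding proteins that also scavenge radicals, had negative differences in all 3 varying genes of 4 measured. *MT2A* ran from 9.62 over 10.06 to 10.95 at pasture and from 10.89 over 11.12 to 12.51 on concentrate, a difference of -1.23 (SE 0.32, adjusted p = 0.218 from limma, exact permutation p = 0.00233). *MT1A* ran from 7.26 over 8.13 to 8.68 at pasture and from 7.85 over 8.76 to 9.73 on concentrate, at -0.89 (SE 0.33, adjusted p = 0.328, exact permutation p = 0.0233). Metallothionein genes are near-identical copies of each other, so probes may read several of them.

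Among other quinone and repair enzymes, 8 of 9 measured varied. At an unadjusted p under 0.05, 1 was lower, against 10.7% of all varying probe sets. This was *PARK7*, a redox-sensitive chaperone, at -0.12 (SE 0.05, exact permutation p = 0.0332), and *NQO2*, the relative of *NQO1*, was at 0.16 (SE 0.08, exact permutation p = 0.0828). Among sources of superoxide and peroxide, 7 of 11 measured genes varied and 1 was higher at that threshold, against 9.23% of all varying probe sets. This was *XDH*, xanthine oxidoreductase, at 0.40 (SE 0.15, adjusted p = 0.336 from limma, exact permutation p = 0.0163). It was read at 1 of its 2 probe sets, which bears the same suffix as the third *PRDX6* probe set. *NOX4*, an oxidase of the NADPH family, was almost constant at 5.85 at the probe set that was read, of its 2.

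**Figure D5:**
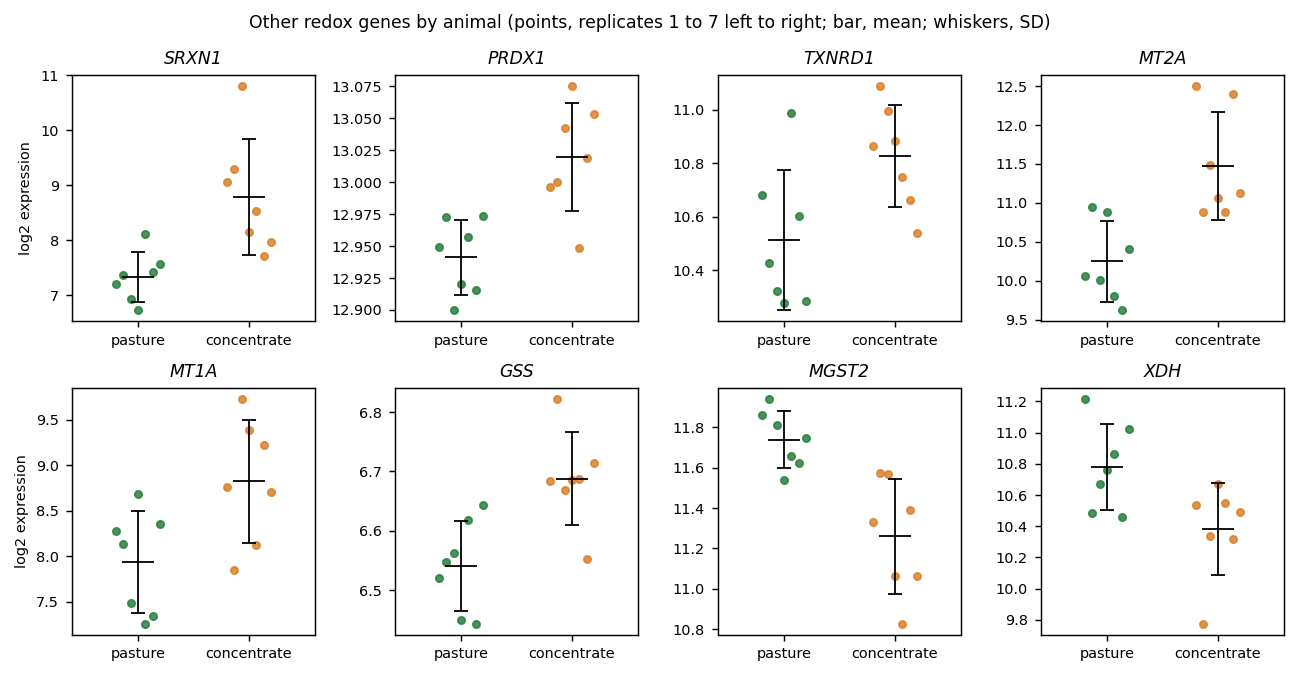
Log2 expression (vertical axes, each with its own range) of 8 other redox genes, with 1 point an animal, green for the 7 at pasture and orange for the 7 on concentrate; bars are means and whiskers SDs. The groups overlap in every panel, by 1 outdoor/pasture-fed animal for *SRXN1*, *MT2A* and *MGST2*. *MGST2* and *XDH* have the higher mean at pasture and the other 6 the lower.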

How the data were processed

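The deposited series matrix table holds log2 expression values of 24128 probe sets on 14 arrays, which the authors quantile normalised and summarised with FARMS in R. Their filter for informative probe sets was not used, since it rests on single probes. The 112 control probe sets were left out. Members were found by symbol in GEO's platform annotation, where 13292 probe sets have 1 symbol, 86 several and 10638 none. A RefSeq gene matched 13263 of them, and no symbol differed. Differences, outdoor/pasture-fed minus indoor/concentrate-fed, were estimated in limma 3.58.1 (lmFit, eBayes; R 4.3.3) over all 24016 bovine probe sets, with Benjamini-Hochberg adjustment. The fit was tested on simulated data. Two-sided exact permutation tests covered all 3432 assignments of the animals and cannot go below 0.000583. Permutation tests of correlations used 100000 resamples within groups.

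The members, lists, SD limit and alternatives were chosen with earlier results of these data known. In lists, a gene is read by its probe set with the highest mean. Named are the members and each list's genes past the threshold or otherwise its 2 other genes with the smallest p. The 5 genes most like *PRDX3*, the member with the smallest p, are also named. Each p is from the fit over all probe sets. Replicates are separate animals, and the labels name no batch. No reference sequences were used.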

Additional observations from a re-analysis of the deposited data

Results flagged for a closer look

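In 4 of 56 groups checked, 1 animal lay apart from the others by Dixon's criterion, over the 12 member probe sets and the other varying genes named by the rule. Chance sets apart about 5% of groups, so the count is near what chance gives. *GPX3* was at 6.43 in indoor/concentrate-fed replicate 5, against 6.92 for the next animal. *CCS*, the copper chaperone of *SOD1*, was at 8.002 in outdoor/pasture-fed replicate 7, against 8.187. *GPX7* was at 8.80 in outdoor/pasture-fed replicate 5, against 7.56. *XDH* was at 9.78 in indoor/concentrate-fed replicate 2, against 10.32.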

How the results depend on the processing

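No member and no pathway gene passed an adjusted p of 0.05 in any of the 22 alternatives. With the members included, 20 of the 77 varying pathway genes had an unadjusted p under 0.05. This count became 16 to 21 by setting and 14 to 26 on leaving out 1 animal. With the replicate number as a block, 2 member probe sets were higher at an unadjusted p under 0.05 in place of 4. The number was 2 to 4 on leaving out 1 animal, and 0 to 1 were lower. It was 2 when animals 1, 2 or 4 of the pasture group, or 2 or 7 of the concentrate group, were left out. Same-numbered animals correlated at -0.18 to 0.24, over 0.1 in 2 of 7 pairs. Of the 7 outdoor/pasture-fed animals, 2 correlated best with their own number. With the number as a block, the SE of *GPX1* was 0.09 at both probe sets, against 0.18 and 0.23 without it. Whether same-numbered animals share a factor cannot be settled from 7 pairs. *PRDX3* and the second *PRDX6* probe set had an unadjusted p under 0.05 in all 22 alternatives, *SOD2* in 16 and the first *PRDX6* probe set in 12. *GPX1* turned negative with array weights (-0.068 and -0.12) and without outdoor/pasture-fed replicate 5, its differences on leaving out 1 animal spanning -0.011 to 0.19 and -0.065 to 0.21. *GPX4* spanned -0.014 to 0.058 and was negative without outdoor/pasture-fed replicate 1 or indoor/concentrate-fed replicate 3 (-0.014 and -0.0079). *CCS* spanned -0.029 to 0.068 and was negative without indoor/concentrate-fed replicate 5 and *GPX7* spanned -0.30 to 0.018 and was positive without indoor/concentrate-fed replicate 3. The causes were not tested. The differences of the other members and of the other varying pathway genes named by the rule kept their sign. Genes named after their values were seen, and marker genes, were not run under the alternatives.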
